A study of Homo sapiens with 3 samples.

Results

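The 10 genes described here are the 4 receptors of the epidermal growth factor receptor (EGFR) family, EGFR, ERBB2, ERBB3 and ERBB4, and 6 ligands, EGF, TGFA, HBEGF, AREG, EREG and BTC. They were taken by symbol out of 22894 genes in the deposited count files, and all 10 were found. RNA was sequenced in 3 libraries of 1 group, control siRNA, from MDA-MB-231. This established human cell line comes from a breast cancer of the triple-negative class (without estrogen receptor, progesterone receptor or HER2 amplification) and carries the p53 missense change R280K. Cells grew in DMEM with 10% FCS, were transfected with 50 nM control siRNA in 2 rounds spaced by 24 h, and were collected 48 h after the later round. The labels call the libraries biological replicates without saying how the cultures were separated, so the p-values below measure only the spread between these libraries. The p53 siRNA arm named in the design is not analysed here, so treated and untreated cells cannot be compared. Gene totals were 67693080, 83676844 and 53764620 counts in replicates 1, 2 and 3, and the mesenchymal and basal markers VIM, AXL, CD44 and MSN were all abundant (summed TPM 6744 to 7099), while CDH1, ESR1 and PGR together reached at most 1.07 TPM. Summed markers of other cell types (4 genes each) were low. Those of leukocytes, fibroblasts and endothelium ran from 2.88 to 3.57, 0.164 to 0.442 and 1.07 to 1.50 TPM, and those of luminal breast cells from 5.06 to 5.88 TPM, with DCN and ERG at 0 counts in all 3 libraries. CD14 (2.65 TPM), PECAM1 (1.22 TPM) and GATA3 (4.60 TPM) made up most of the leukocyte, endothelial and luminal sums. These genes reached 1 CPM in each library.

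Receptors of this family are cell-surface tyrosine kinases that pair with each other when a ligand binds. The ligands are made as membrane-anchored precursors that proteases cut free, so a cell that transcribes both a receptor and its ligand can in principle signal to itself (an autocrine loop). EGF, TGFA and AREG bind EGFR, whereas HBEGF, EREG and BTC bind both EGFR and ERBB4. ERBB2 has no known soluble ligand and acts as a partner of the other receptors, and ERBB3, which binds neuregulins, has little kinase activity of its own. In basal-like breast cancer EGFR is known to be frequently abundant. RNA from bulk cultures does not tell fewer expressing cells apart from less RNA per cell, and it does not show how much receptor or ligand protein the cells made or released.

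Comparisons between genes use TPM, a level per transcript length scaled within each library. Values of 1 gene across libraries are in CPM, its count relative to the library size after TMM scaling. MDA-MB-231 cells transcribed 2 of the 4 receptors strongly, EGFR and ERBB2, and 4 of the 6 ligands, AREG, TGFA, HBEGF and EREG. ERBB3 was low, EGF lower, and BTC and ERBB4 were under 1 CPM in each library. Of the 10 members, 8 reached 1 CPM in every library and 6 reached 10 CPM, beside 12699 and 9437 of the 18809 genes with a count. The median level of the 10 members was 30.8 TPM, and that of all genes with a count 9.27 TPM.

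**Figure D1:**
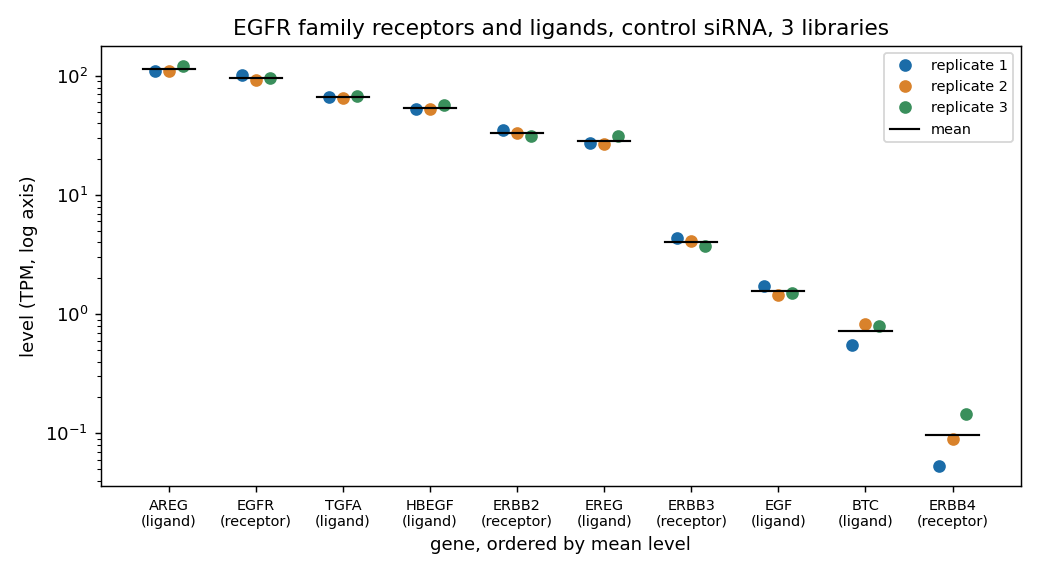
Level of each of the 10 genes (vertical log axis, TPM) in the 3 libraries (coloured points) with the mean (black line), ordered by mean level. The 6 highest genes have means between 28.6 and 114 TPM, ERBB3 is at 4.06 TPM, and EGF, BTC and ERBB4 follow down to 0.0961 TPM.

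EGFR, the receptor for all 6 ligands, was at 102, 91.7 and 96.9 TPM in replicates 1, 2 and 3 (96.7 ± 4.95 TPM, SD, n = 3), above 89.3% of genes with a count. ERBB2, the HER2 gene and the partner receptor, was at 35.0, 33.0 and 31.2 TPM (33.1 ± 1.90 TPM). In each library EGFR lay well above ERBB2, by 2.91-, 2.78- and 3.11-fold, and the mean fold was 5.80 with median transcript lengths and 6.01 in CPM. ERBB3, the neuregulin-binding receptor, was at 4.37, 4.08 and 3.72 TPM (4.06 ± 0.327 TPM), lowest in replicate 3. ERBB4, which binds neuregulins and a subset of the EGFR ligands, was at 0.0527, 0.0897 and 0.146 TPM (0.0961 ± 0.0469 TPM). Its level rested on 16, 34 and 35 counts, or 0.237 CPM (exact 95% Poisson interval 0.136 to 0.385), 0.407 CPM (0.282 to 0.568) and 0.648 CPM (0.451 to 0.901), intervals that cover counting error only. The intervals of replicates 1 and 3 did not overlap. If each read pair gave 2 counts, they ran from 0.102 to 0.467 CPM in replicate 1 and from 0.381 to 1.03 CPM in replicate 3 and overlapped.

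As a share of the summed receptor TPM, EGFR took 72.1%, 71.1% and 73.4% in replicates 1, 2 and 3 (72.2 ± 1.16%, n = 3). ERBB2 took 24.7 ± 1.003%, ERBB3 3.03 ± 0.185% and ERBB4 0.0725 ± 0.0367%. The receptor pool was thus mostly EGFR in each of the 3 libraries, and EGFR remained the highest receptor under each of the 5 other ways of measuring levels that were tried.

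AREG, the amphiregulin gene, was the highest ligand, at 110.0, 110.2 and 121 TPM in replicates 1, 2 and 3 (114 ± 6.55 TPM, n = 3). TGFA, which encodes transforming growth factor alpha, was at 67.2, 65.3 and 68.5 TPM (67.0 ± 1.58 TPM), with the smallest relative spread of the 10 genes (coefficient of variation 2.36%). HBEGF, the heparin-binding ligand, was at 52.6, 52.8 and 57.4 TPM (54.3 ± 2.73 TPM). EREG, the epiregulin gene, was at 27.4, 27.0 and 31.4 TPM (28.6 ± 2.43 TPM). AREG, HBEGF and EREG were each highest in replicate 3, where 40.9% of all genes that varied between libraries were highest. EGF itself was at 1.71, 1.44 and 1.504 TPM (1.55 ± 0.144 TPM), on 209, 219 and 145 counts. BTC, the betacellulin gene, was at 0.554, 0.830 and 0.791 TPM (0.725 ± 0.149 TPM), on 39, 73 and 44 counts, or 0.578 CPM (exact 95% Poisson interval 0.411 to 0.790), 0.873 CPM (0.685 to 1.10) and 0.815 CPM (0.592 to 1.09). All 3 intervals for BTC overlapped.

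AREG, TGFA, HBEGF and EREG together made up 99.1 ± 0.0349% of the summed ligand TPM, and EGF and BTC the other 0.857%. AREG took 42.4%, 42.8% and 43.2% of the ligand TPM in replicates 1, 2 and 3, TGFA 25.9%, 25.4% and 24.4%, HBEGF 20.3%, 20.5% and 20.4%, and EREG 10.5%, 10.5% and 11.2%. The order of the 4 shares was the same in each library. AREG and TGFA change places with the length used. With the median instead of the longest coding transcript, TGFA took 58.7% and AREG 24.8%. AREG has 2 copies of its record in the counted annotation, with 3411, 4270 and 2976 counts for the copy used and 2597, 3376 and 2480 for the other, and how reads matching both copies were counted is not stated. With the copies summed AREG was at 199.5 TPM and took 57.3% of the ligand TPM, so its level is uncertain.

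**Figure D2:**
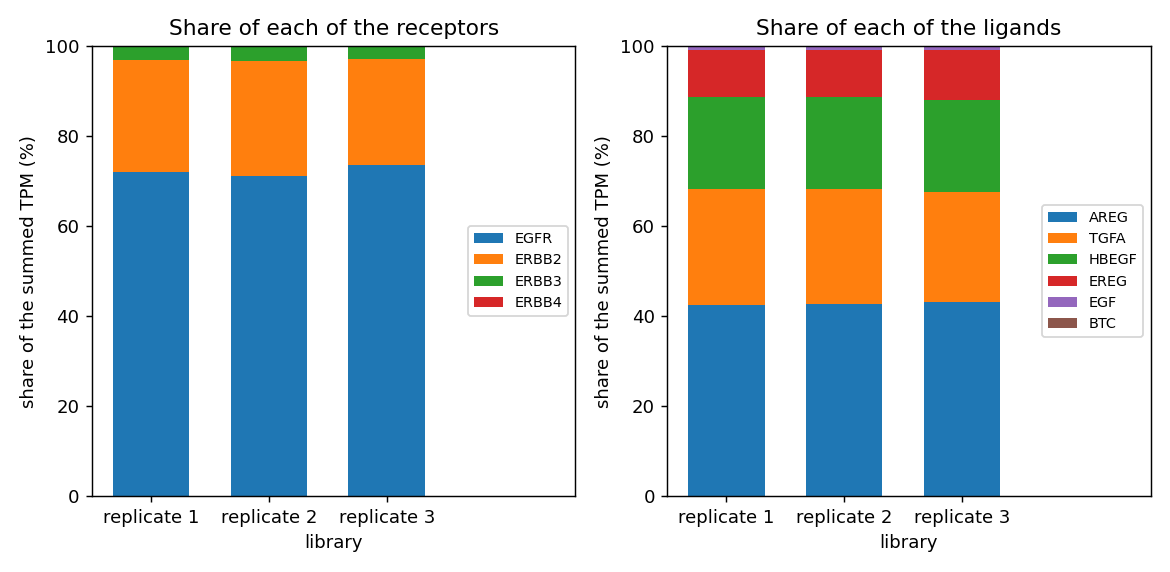
Share of each gene in the summed TPM of the 4 receptors (left) and of the 6 ligands (right), in percent, for each library. EGFR fills 71.1% to 73.4% of the receptor bars and AREG 42.4% to 43.2% of the ligand bars, while ERBB4 and BTC are too thin to see.

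Paired by receptor, the levels fall into 3 sets. For EGFR, the summed TPM of its 6 ligands was 2.55, 2.81 and 2.90 times that of the receptor in replicates 1, 2 and 3 (2.75 ± 0.180, n = 3). Singly, EGFR stood at 0.851 ± 0.0651 times AREG, 1.44 ± 0.0590 times TGFA, 1.79 ± 0.130 times HBEGF and 3.40 ± 0.312 times EREG, and at 62.6 ± 2.80 times EGF. These ratios depend on the length used. With median lengths EGFR stood at 2.21 times AREG, 0.932 times TGFA, 5.23 times HBEGF, 9.96 times EREG and 168 times EGF, and in CPM at 6.74, 3.29, 7.35, 7.23 and 126 times these genes. For ERBB4, its ligands HBEGF and EREG were transcribed, as was the neuregulin NRG1, and BTC was under 1 CPM. The receptor was not at 1 CPM in any library, with HBEGF at 998, 589 and 394 times ERBB4 in TPM. These values rest on 16, 34 and 35 ERBB4 counts and on lengths of 2386 bases for HBEGF and 12136 for ERBB4. In CPM, with no length, HBEGF was at 46.5, 47.1 and 50.1 and ERBB4 at 0.237, 0.407 and 0.648. For ERBB3, whose ligands are neuregulins, the receptor was at 4.06 TPM and NRG1 at 60.8 ± 3.99 TPM, a ratio of 14.6, 13.8 and 16.7 in replicates 1, 2 and 3. The ratio of NRG1 to ERBB3 also depends on the length used and was not computed under other settings. ERBB3 was at 11.6 TPM with median lengths, and in CPM NRG1 was at 133 and ERBB3 at 8.89. Over the whole family, the summed ligand TPM was 1.84, 1.999 and 2.13 times the summed receptor TPM (1.99 ± 0.145). This ratio depends on the length used. It was 1.46 with median lengths, 2.67 with the AREG copies summed and 0.619 in CPM, where no length is taken into account.

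In the order of TPM, 8 of the 9 neighbouring pairs differed beyond their spread, meaning that their 3 values did not overlap and that the mean log2 difference exceeded 2 SD. The exception was ERBB2 over EREG, at 0.21 ± 0.19, whose order turned in replicate 3. From the top, AREG exceeded EGFR by 0.23 ± 0.11 log2 units, EGFR exceeded TGFA by 0.53 ± 0.06, TGFA exceeded HBEGF by 0.30 ± 0.05 and HBEGF exceeded ERBB2 by 0.72 ± 0.15. Further down, EREG exceeded ERBB3 by 2.81 ± 0.23 and ERBB3 exceeded EGF by 1.38 ± 0.10. EGF exceeded BTC by 1.10 ± 0.44 and BTC exceeded ERBB4 by 2.87 ± 0.44. With median lengths EREG over ERBB3 was 0.29 ± 0.23, within its spread. So were HBEGF over ERBB2 (0.15 ± 0.15) and EGF over BTC (0.52 ± 0.44). The place of AREG above EGFR depends on the setting. It rose to 1.08 ± 0.14 with the AREG copies summed. It was no longer beyond the spread without replicate 2 (0.22) or without replicate 3 (0.19), and it turned to -1.14 with median transcript lengths. EGFR over TGFA was -0.10 ± 0.06 with median lengths, within its spread, where the length of EGFR falls from 9821 to 3354 bases and that of TGFA from 4310 to 950. With counts summed over all records of a gene, ERBB2 (34.8 TPM) stood above HBEGF (28.8 TPM). HBEGF has 1 record and ERBB2 has 2, of which the one not used shares 4012 of its 4545 bases with the other. Summing most likely counts the same ERBB2 reads more than once, so this order cannot be taken as one of levels.

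The records behind EGFR and ERBB3 include short forms, which encode secreted receptor fragments without the kinase domain. EGFR has 4 records. The full-length record NM_005228, which was used, had 24959, 28141 and 18811 counts in replicates 1, 2 and 3. The short records NM_201282 and NM_201284 had 9663, 10944 and 7062 counts and 9675, 10959 and 7065 counts, and NM_201283 had 6078, 6924 and 4350. In GENCODE 29, 2057 of the 2239 bases of NM_201282 and 2057 of the 2864 bases of NM_201284 lie in exons of the full-length form. The 2 records therefore share the same number of bases with it and held nearly the same counts, although NM_201284 has 807 bases outside those exons and NM_201282 only 182. Counts over a short record cannot be told apart from reads of full-length EGFR in the shared exons. ERBB3 also has a short record, at lower counts, with 647, 755 and 435 for the full-length record NM_001982 and 65, 51 and 48 for the short NM_001005915, of whose 1027 bases 585 are shared. Per kilobase the short ERBB3 record held fewer counts than the full-length one (63.3, 49.7 and 46.7 against 109, 128 and 73.5). Each short EGFR record held more, as NM_201282 did (4316, 4888 and 3154 against 2541, 2865 and 1915). These values use GENCODE 29 lengths, with 9821 bases for full-length EGFR. The lengths of the counted records themselves are not given in the sources used here. If they differ, the contrast between EGFR and ERBB3 can change, which was not tested. The 2 records of ERBB4 had the same counts in each library, and the lowest of the 3 EGF records held 95.2% of the highest on average. Those of TGFA differed by at most 5 counts, although in GENCODE 29 they span 1225 and 4310 bases. The TPM of TGFA therefore depends on the length taken, and which length fits the counted records is not known.

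Whether a gene's 3 libraries differed by more than counting noise was tested in edgeR, from the deviance of a model with 1 common level, with Benjamini-Hochberg adjustment over 14495 tested genes. Of these, 52.7% varied at an adjusted p under 0.05, and 7 of the 10 members did. EGFR, at 370.0, 337 and 348 CPM in replicates 1, 2 and 3, was highest in replicate 1 and lowest in replicate 2 (edgeR adjusted p = 6.0e-25, highest over lowest 1.10). ERBB2, at 62.1, 59.1 and 54.7 CPM, was lowest in replicate 3 (edgeR adjusted p = 3.46e-06, 1.14-fold), and so was ERBB3, at 9.59, 9.03 and 8.05 CPM (edgeR adjusted p = 0.035, 1.19-fold). EREG, at 46.9, 46.6 and 53.0 CPM, was highest in replicate 3 (edgeR adjusted p = 7.03e-07, 1.14-fold). AREG, at 50.6, 51.1 and 55.1 CPM, was also highest there (edgeR adjusted p = 0.00291, 1.09-fold), as was HBEGF, at 46.5, 47.1 and 50.1 CPM (edgeR adjusted p = 0.0216, 1.08-fold). ERBB4 had the widest range, 2.73-fold from replicate 1 to replicate 3 (edgeR adjusted p = 0.00615). EGF, TGFA and BTC did not pass (edgeR adjusted p = 0.262, 0.316 and 0.145). With counts summed over all records EGF passed too (edgeR adjusted p = 0.0104), and 8 of 10 members varied beside 62.4% of tested genes. The EGF records not used share 3642 of 3642 and 4482 of 4489 bases with the one used. Summing them most likely repeats the same reads, which lowers p, so this setting cannot show that EGF varied. Apart from ERBB4, the varying members differed by at most 1.19-fold between libraries.

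Among the 7 varying members, 4 were highest in replicate 3, 3 in replicate 1 and 0 in replicate 2, beside 40.9%, 30.5% and 28.6% of all varying genes. The ligands AREG, HBEGF and EREG and the receptor ERBB4 were highest in replicate 3, and the receptors EGFR, ERBB2 and ERBB3 in replicate 1. Without replicate 3, only EGFR still varied, and 24.0% of all tested genes did. When a spread between cultures with a coefficient of variation of 0.05 was added to counting noise, 0 of the 10 members varied by edgeR (1 at an unadjusted p under 0.05, ERBB4) and 1.15% of all tested genes. The allowance lies near the common value that edgeR estimated from these same libraries (0.0545), so few calls were to be foreseen. If both mates of a pair were counted, the counts overstate the number of fragments. With each pair counted once EGFR, ERBB2 and EREG varied, 3 of 10 members beside 28.1% of all tested genes, and ERBB4 no longer did (edgeR adjusted p = 0.127).

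The libraries also differed by base composition. Over all tested genes, the lowest of 10 GC bins (median 37.2% GC) had a median deviation of 0.07 log2 units in replicate 3 and the highest (64.3% GC) of -0.09. EREG, with 36.1% GC in its longest transcript, deviated by 0.12 in replicate 3, and ERBB2, with 59.3% GC, by -0.10, in the direction of their bins. AREG (45.3% GC) deviated by 0.08, where the bin of median 44.6% GC was at 0.03. ERBB3 (52.0% GC) deviated by -0.13, where the bin of median 53.5% GC was at -0.03. EGFR (47.5% GC) deviated by 0.07 in replicate 1, where the bin of median 47.3% GC was at -0.01. With offsets for GC content 3 of 10 members varied, EGFR, ERBB4 and HBEGF, beside 39.3% of all tested genes, and AREG, EREG, ERBB2 and ERBB3 no longer did (edgeR adjusted p = 0.0909, 0.129, 0.0802 and 0.0947). HBEGF, at 50.9% GC, deviated by 0.07 in replicate 3, where the bin of median 50.4% GC was at -0.01.

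**Figure D3:**
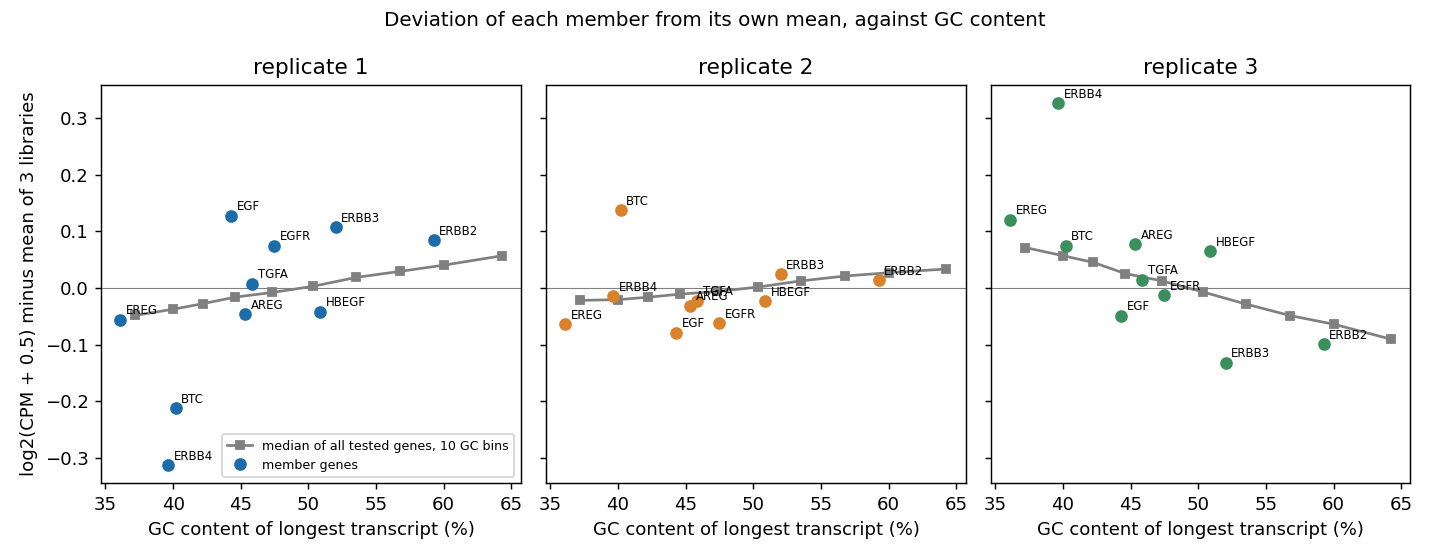
Deviation of each member from its own mean over the 3 libraries (vertical axis, log2 of CPM + 0.5) against the GC content of its longest transcript (horizontal axis, percent), 1 panel per library, with the median of all tested genes in 10 GC bins in grey. In replicate 3 the grey line falls from 0.07 to -0.09, with EREG at 0.12 and ERBB2 at -0.10 near it and ERBB4 at 0.33 far above it.

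EPGN, EREG, AREG and BTC follow each other in that order among the protein-coding genes of chromosome 4 in the RefSeq annotation. EREG and AREG, the middle pair, were both highest in replicate 3, at 53.0 and 55.1 CPM, whereas EPGN and BTC were below 1 CPM in each library. TGFA, HBEGF and ERBB4 were also highest there, as were 40.9% of all varying genes. With GC offsets neither EREG nor AREG varied (edgeR adjusted p = 0.129 and 0.0909). The stretches before the transcription starts of EREG and AREG are shown because the 2 genes are neighbours, with that of EGFR, their receptor, for comparison. They are taken from RefSeq on GRCh38.p14, of which 9 of the 10 members have an entry, and end before the first base that GENCODE 29 places in an exon. Capitals mark matches on either strand to 4 motifs. The TATA box was searched as TATAAA and the cAMP response element as TGACGTCA, which reads the same on both strands. The GC box was searched as GGGCGG and the CCAAT box as CCAAT.
AREG (chr4:74444886-74445133, + strand): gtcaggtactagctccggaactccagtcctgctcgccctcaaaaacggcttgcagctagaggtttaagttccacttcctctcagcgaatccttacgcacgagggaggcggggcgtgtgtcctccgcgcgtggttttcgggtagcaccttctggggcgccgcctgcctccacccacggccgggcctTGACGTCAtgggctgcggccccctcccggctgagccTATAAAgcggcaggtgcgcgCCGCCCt
EREG (chr4:74364895-74365142, + strand): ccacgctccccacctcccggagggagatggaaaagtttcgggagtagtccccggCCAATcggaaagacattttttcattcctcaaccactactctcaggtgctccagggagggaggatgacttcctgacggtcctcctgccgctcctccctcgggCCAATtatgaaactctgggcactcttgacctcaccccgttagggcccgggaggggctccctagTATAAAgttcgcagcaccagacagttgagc
EGFR (chr7:55018767-55019016, + strand): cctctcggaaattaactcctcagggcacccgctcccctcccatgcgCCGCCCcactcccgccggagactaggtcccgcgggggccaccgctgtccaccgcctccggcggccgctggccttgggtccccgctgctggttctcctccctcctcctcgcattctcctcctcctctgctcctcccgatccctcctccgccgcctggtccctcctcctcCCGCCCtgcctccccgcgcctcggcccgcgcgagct
AREG and EREG each hold TATAAA, starting 29 and 32 bases before the start, a match found in 10.7% of 35116 windows of 250 bases before RefSeq starts. AREG also holds TGACGTCA, starting 65 bases before the start, found in 1.65% of windows. EREG holds CCAAT at 2 places; 32.0% of windows hold it at all and 9.53% at 2 places or more. EGFR has no TATAAA in the window shown but GGGCGG at 2 places, both on the other strand, which 42.6% of windows hold at all and 24.3% at 2 places or more. A further RefSeq start of EGFR, whose window lies partly in GENCODE 29 exons and is not printed, has TATAAA starting 146 and 36 bases before it. AREG has GGGCGG on the other strand as well. GC content was 73.6% in the EGFR window, 65.2% in that of AREG and 58.0% in that of EREG, the last equal to the median of all windows. These matches describe the letters only.

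The other genes of the pathway were taken from 5 lists with 38 members, of which 35 reached 1 CPM in each library. They are given as mean ± SD over the 3 libraries (n = 3), and each count of varying genes stands beside the 52.7% of all tested genes that varied. Among the other ligands of the family, NRG1, a neuregulin that binds ERBB3 and ERBB4, was at 60.8 ± 3.99 TPM, between the means of HBEGF and TGFA, but NRG2 was at 1.98 ± 0.228 and NRG4 at 1.04 ± 0.509 TPM. EPGN, the epigen gene, had 2, 7 and 1 counts. NRG3 had 0 counts in all 3 libraries, which allows a level of up to 0.0886, 0.0717 and 0.112 CPM in the respective library (3 pairs, each giving 2 counts). NRG1 varied, at 141, 125 and 135 CPM in replicates 1, 2 and 3 (edgeR adjusted p = 2.64e-15), and so did NRG4 on few counts, at 0.356, 0.287 and 0.685 CPM (edgeR adjusted p = 0.00592). NRG1 was lowest in replicate 2, as were EGFR and 28.4% of all varying genes.

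All 4 genes of ligand shedding were transcribed, with means of 35.6 to 61.8 TPM. ADAM10 and ADAM17, the proteases that release most of these ligands, were at 61.8 ± 4.05 and 40.7 ± 0.592 TPM. RHBDF1 and RHBDF2, the iRhom genes that bring ADAM17 to the cell surface, were at 40.4 ± 2.02 and 35.6 ± 1.80 TPM. Here 3 of 4 genes varied between libraries, all but ADAM17, beside 52.7% of all tested genes.

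The 12 adaptors and proximal effectors had a median of 20.9 TPM, all at 1 CPM or more in each library. The phosphatase gene PTPN11 (SHP2) was highest at 206 ± 11.1 TPM and the adaptor GRB7, a neighbour of ERBB2 in the genome, lowest at 4.19 ± 0.212 TPM. GRB2 and SHC1, which couple the receptors to RAS, were at 72.4 ± 1.71 and 162 ± 4.20 TPM. In this list 9 of 12 genes varied, and GAB1, a docking protein, had the widest range, at 13.6, 11.8 and 16.0 CPM in replicates 1, 2 and 3 (edgeR adjusted p = 7.56e-09).

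Among 9 negative regulators, whose median was 23.5 TPM, ERRFI1 (MIG6), which binds and inhibits the EGFR kinase, was highest at 267 ± 14.8 TPM. It was at 254, 265 and 283 TPM in replicates 1, 2 and 3, above EGFR in each, but in CPM it was below EGFR in each (mean ratio 0.876). LRIG1, a membrane protein that promotes receptor degradation, was lowest at 4.79 ± 0.267 TPM. Variation passed the test in 6 of 9 genes, ERRFI1 among them (292, 308 and 322 CPM in replicates 1, 2 and 3, edgeR adjusted p = 3.48e-18) but not LRIG1 (edgeR adjusted p = 0.228). The 8 genes of receptor endocytosis and sorting had a median of 45.6 TPM, from the clathrin adaptor AP2M1 at 492 ± 13.2 TPM to the deubiquitinase USP8 at 7.94 ± 0.526 TPM, and 8 of 8 varied. Over the 5 lists, 28 of 36 tested genes varied, beside 52.7% of all tested genes. The test allows for counting noise only, so it calls small differences more readily at high counts. At 1 CPM in each library were 35 of the 38 list genes, beside 12699 of 18809 genes with a count. Whether the lists varied more than genes with like counts was not tested, nor were they counted under the other settings.

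**Figure D4:**
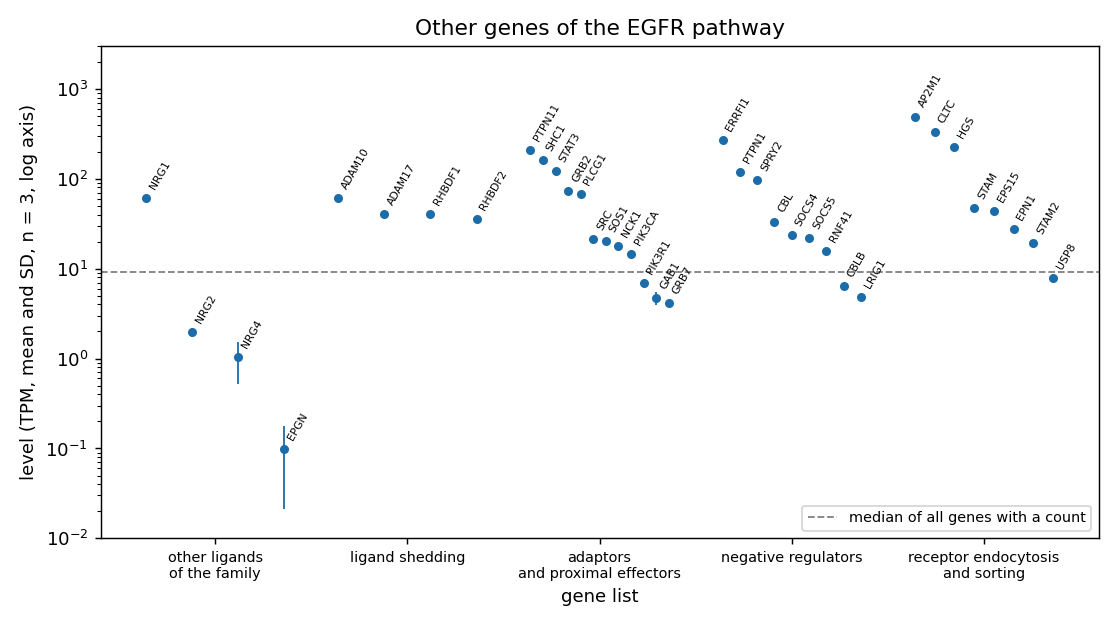
Level of the other pathway genes (vertical log axis, TPM, mean with SD of 3 libraries) in 5 lists, with the median of all genes with a count (9.27 TPM) as a dashed line. NRG1 stands at 60.8 TPM apart from NRG2, NRG4 and EPGN, ERRFI1 leads the negative regulators at 267 TPM, and NRG3, at 0 counts, is not drawn.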

How the data were processed

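RNA from 3 control siRNA libraries was read as pairs of 100 bp (TruSeq RNA kits), per the labels' protocols. The deposited values are raw counts per RefSeq transcript record; the submitters' processing notes name FastQC, TopHat2, Cufflinks and the build hg19, and versions, counting tool, strand setting and the handling of multiple hits are not given in the sources used here. Each library holds 42269 records. Of 6937 records without a symbol, 6318 were matched by accession, and the 619 others (0.952%, 0.959% and 0.944% of the totals) were left out. Symbols of 28 genes that had become date numbers were restored from Entrez identifiers. A gene's count was its record with the largest total over the libraries. The 10 members have 20 records, all named by the files.

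TPM used the longest coding transcript of each gene in GENCODE 29, or the longest transcript where none is coding (98.5% of genes with a count had a length). The counted RefSeq records belong to the build hg19, and their own lengths were not at hand. TPM is therefore off where the 2 annotations differ in length. TMM scaling and filterByExpr of edgeR 4.0.16 (R 4.3.3) were used. To test variation, the edgeR deviance of a model with 1 level and no dispersion was set against a chi-square distribution, a step tested on simulated data. More genes had exactly 2 counts (716, 644 and 589 in replicates 1, 2 and 3) than 1 count (490, 406 and 386), as when both mates are counted. DESeq2 1.42.0 gave alternative size factors. Python 3.11.15, numpy 2.4.6, pandas 2.3.3, scipy 1.17.1 and matplotlib 3.10.9 did the rest.

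The rule for the members used symbols alone, but the family and the lists were chosen with earlier results of these data known. Named are all members, the highest and lowest gene of each list, all other ligands and shedding genes, ERRFI1, LRIG1, and varying list genes with a range of 1.3-fold or more; GRB2 and SHC1 were added after their values were seen. Likeness of pattern was not computed, since 3 libraries of 1 group give none across conditions. Promoter motifs and cell type markers were matched as described with them, and 1 marker gene is not reported here.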

Additional observations from a re-analysis of the deposited data

How the results depend on the processing

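No paired analysis was possible because the data hold 1 group. Levels below are means in TPM unless CPM is named, and shares are percent of the summed receptors or ligands. Lengths linked to the counted record, differences between neighbours with median lengths, with copies summed or without a library, the ratios under each setting and intervals with 2 counts a pair were added after seeing the data. With the median transcript length, levels were 141 for EGFR, 24.3 for ERBB2, 11.6 for ERBB3, 0.836 for EGF, 151 for TGFA, 26.9 for HBEGF, 63.8 for AREG and 14.2 for EREG. Under that setting shares were 79.6 for EGFR, 13.8 for ERBB2, 6.57 for ERBB3, 0.0283 for ERBB4, 0.326 for EGF, 58.7 for TGFA, 10.5 for HBEGF, 24.8 for AREG and 5.51 for EREG. The log2 difference turned to -1.14 for AREG minus EGFR and, within its spread, -0.10 for EGFR minus TGFA (EGFR at 2.21 times AREG and 0.932 times TGFA). It stayed positive but within its spread, at 0.15 for HBEGF minus ERBB2, 0.29 for EREG minus ERBB3 and 0.52 for EGF minus BTC. It exceeded its spread, at 0.78 for ERBB2 minus EREG. The ligand-to-receptor ratio was 1.46. With counts summed over all records of a gene, levels were 103 for EGFR, 2.35 for ERBB3, 2.41 for EGF, 71.1 for TGFA, 28.8 for HBEGF, 15.2 for EREG and 0.385 for BTC. Under that setting shares were 73.5 for EGFR, 1.67 for ERBB3, 1.07 for EGF, 31.4 for TGFA, 12.7 for HBEGF, 47.9 for AREG, 6.69 for EREG and 0.170 for BTC. The ligand-to-receptor ratio was 1.62. With the copies of a record summed, levels were 65.4 for TGFA and 199.5 for AREG. Under that setting shares were 0.436 for EGF, 18.8 for TGFA, 15.2 for HBEGF, 57.3 for AREG, 8.004 for EREG and 0.203 for BTC. The ligand-to-receptor ratio was 2.67 and AREG minus EGFR 1.08. In CPM, with no length, levels were 352 for EGFR, 58.6 for ERBB2, 8.89 for ERBB3, 0.431 for ERBB4, 2.80 for EGF, 107 for TGFA, 47.9 for HBEGF, 52.3 for AREG and 48.8 for EREG. Under that setting shares were 83.8 for EGFR, 14.0 for ERBB2, 2.12 for ERBB3, 1.08 for EGF, 41.2 for TGFA, 18.5 for HBEGF, 20.1 for AREG and 18.8 for EREG. The log2 difference turned to -2.75 for AREG minus EGFR and, within its spread, -0.29 for HBEGF minus ERBB2, with EGFR at 6.74 times AREG and ERRFI1 at 0.876 times EGFR. It stayed positive but within its spread, at 0.89 for BTC minus ERBB4. The ligand-to-receptor ratio was 0.619. With the length of the GENCODE 29 transcript linked to the counted record, levels were 86.1 for EGFR, 29.4 for ERBB2, 3.61 for ERBB3, 1.38 for EGF, 59.7 for TGFA, 48.3 for HBEGF, 101 for AREG and 25.4 for EREG. These genes kept their counts and lengths there (9821 bases for EGFR) and their shares (72.2 for EGFR). Only the total that TPM is scaled to changed, as for TGFA with the copies summed. This setting therefore does not check the lengths of these genes. The cause of the other moves was not tested beyond the length or count they change. Leaving out each library in turn, the difference of AREG over EGFR ran from 0.19 to 0.30 and that of ERBB2 over EREG from 0.14 to 0.32, with the lowest value of the former and the highest of the latter both without replicate 3. The number of members that varied ran from 1 (without replicate 3) to 7, and of all tested genes from 3548 (without replicate 3) to 5645. With each pair counted once 3 members and 4076 genes varied, with a coefficient of variation of 0.05 allowed for 0 members (edgeR; 1 at an unadjusted p under 0.05) and 166 genes, and with GC offsets 3 members. With counts summed over records, where reads in shared exons can count more than once, 8 members varied. DESeq2 size factors, gene totals alone and no filter on low counts left the number of varying members at 7. ERBB4, BTC, NRG4 and EPGN rest on at most 73 counts a library, which limits what can be said of them.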
